A study of Mus musculus with 12 samples.

Results

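Zbtb16 and the 4 mouse Sall genes (Sall1, Sall2, Sall3 and Sall4) were followed across sorted spermatogonia and whole testes. The members were chosen by name: a probe counted if the annotation in the scanner files gave it one of these 5 symbols. They were 5 of 36315 gene and transcript names on the array and had 7 of its 55681 probes, 3 of them for Sall4 and 1 for each other gene. RNA was taken from C57BL/6 mice aged 10 to 11 weeks and hybridised to 12 Agilent 1-colour arrays, 3 for each of 4 groups. GFRα1+ spermatogonia were the GFP+ cells of Gfra1-EGFP mice, with 1 mouse per sample. NGN3+ and KIT+ spermatogonia were the KIT- and KIT+ cells within the GFP+ fraction of Ngn3-EGFP mice, with 2 mice pooled per NGN3+ sample and 1 mouse per KIT+ sample. Whole testes were unsorted. EGFP marks each line through a transgene, GFP protein in Ngn3-EGFP cells outlasts Ngn3 transcription, and the GFRα1+ fraction came from a different line than the NGN3+ and KIT+ fractions. Line and fraction cannot be told apart in any comparison that includes GFRα1+ cells.

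Zbtb16 encodes PLZF, a repressor with a BTB domain, through which it pairs and recruits corepressors, and a row of C2H2 zinc fingers, which bind DNA. It is a standard marker of undifferentiated spermatogonia, and mice without it lose their germ cells progressively with age. The Sall genes encode the vertebrate relatives of the Drosophila homeotic factor Spalt, with C2H2 fingers in widely spaced clusters and an amino-terminal motif that recruits the NuRD histone deacetylase complex. SALL4 is needed for spermatogonial maintenance and differentiation in mice and binds PLZF. SALL1 is best known from kidney and limb development.

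The arrays read each gene through short stretches of its mRNA, so that what a probe covers limits what its level means. All 7 probes were 60 bases long, and positions below are in mm9, as the scanner files give them. The 3 Sall4 probes carry the comparison between stretches of 1 transcript, and those of Zbtb16 and Sall1 carry the main ratios. The Sall4 variant a probe (A_55_P2173546, chr2:168580437-168580496, minus strand) was matched in the files to the RefSeq transcript of variant a alone, and the middle probe (A_51_P145260, chr2:168578172-168578231) and the 3′ probe (A_51_P349087, chr2:168574333-168574392) to 3 variants. Zbtb16 was read at chr9:48462419-48462478 (A_55_P2024155) and Sall1 at chr8:91551278-91551337 (A_55_P1977850), both on the minus strand. The 2 upstream Sall4 probes are shown whole, and the other 3 by their first 30 bases, 5′ to 3′ on the mRNA strand, in lower case throughout because no base is singled out.
Sall4 variant a probe: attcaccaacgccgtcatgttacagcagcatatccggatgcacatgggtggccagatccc
Sall4 middle probe: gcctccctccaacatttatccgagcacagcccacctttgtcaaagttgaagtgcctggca
Sall4 3′ probe: tgcgaccacccaagtattgccaggtcttaa
Zbtb16 probe: tatttcttccgttctacaggaccttgctct
Sall1 probe: cctcttgatcaagagcaggtatagtgttgg

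A level here is the log2 of a probe's processed signal minus the 75th percentile of its array, so that 0 stands for the 75th percentile. The genes that name the fractions followed the labels. Gfra1 averaged 1.65 ± 0.16 in GFRα1+, −1.22 ± 0.23 in NGN3+ and −3.38 ± 0.05 in KIT+ cells, and −4.07 ± 0.03 in whole testes (SD, n = 3 each). Neurog3, which encodes NGN3, averaged 4.13 ± 0.21, 5.23 ± 0.43, 2.77 ± 0.17 and −1.05 ± 0.50 in the same order, and Kit 1.5 ± 0.12, 1.96 ± 0.58, 4.55 ± 0.11 and −0.08 ± 0.33. Between 50.1% and 65.1% of probes were well above background on an array. The share was 50.1% to 50.8% on GFRα1+ arrays and 59.5% to 65.1% on NGN3+ arrays. Markers of later germ cells differed between fractions: all 7 spermatid genes were well above background in NGN3+ and KIT+ cells and 6 of 7 in GFRα1+ cells, with Acrv1 on none of the GFRα1+ arrays. Their summed level, in multiples of the array's 75th percentile, ran from 24.1 to 57.4 in GFRα1+ cells, 1209 to 1431 in NGN3+ cells, 1439 to 1740 in KIT+ cells and 3935 to 4918 in whole testes. The 5 peritubular myoid genes summed to 0.873 to 1.02, 12.9 to 20.9, 12.5 to 17.4 and 137 to 160 in that order, with Myh11 on none of the GFRα1+ arrays. The 5 endothelial genes went the other way among sorted cells, with 7.95 to 13.9, 4.81 to 7.97, 4.22 to 4.52 and 14.5 to 17.1. So did the 5 Leydig genes, with 5.99 to 10.8, 2.21 to 3.46, 2.51 to 3.07 and 12.9 to 17.4, although Cyp11a1, Hsd3b1 and Lhcgr were above background on no sorted array. The 5 macrophage genes summed to 1.48 to 2.55, 0.882 to 1.38, 1.02 to 1.22 and 2.42 to 2.64, with Cd68 and Lyz2 on no sorted array. Adgre1 and Ptprc were on no GFRα1+ array either, so that 1 gene was above background in that fraction. The 7 spermatocyte genes, all above background in every group, summed to 24.0 to 25.9, 89.2 to 145, 114 to 158 and 506 to 577. The 7 Sertoli genes gave 4.63 to 7.75, 6.23 to 8.02, 4.78 to 5.41 and 19.0 to 25.1, with Amh and Fshr on no sorted array. The part of these cells' RNA in the ratios to GFRα1+ cells was not tested. The arrays lay on 3 slides: GFRα1+ replicates 1 and 2 shared a slide with a whole testis array, and GFRα1+ replicate 3 shared one with all NGN3+ and KIT+ arrays.

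Zbtb16 was read most strongly in the undifferentiated fractions and fell sharply in KIT+ cells. Its level was 5.84, 5.89 and 5.96 on the GFRα1+ arrays, 5.75, 5.44 and 5.14 on the NGN3+ arrays, 3.50, 3.6 and 3.43 on the KIT+ arrays and −0.12, −0.26 and −0.21 in whole testes. No 2 groups overlapped, and the order ran GFRα1+, NGN3+, KIT+ and whole testes from high to low. The share of all genes or probes without overlap was not counted, here or below, so that a lack of overlap sets no member apart. NGN3+ cells stood closest to GFRα1+ cells and had the widest spread, with an SD of 0.30 against 0.06 in GFRα1+ cells. The processed signals on the NGN3+ arrays lay closer together, at 25441, 23978 and 23840. Their 75th percentiles were 473, 551 and 675, so that the level fell as the percentile rose.

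Sall4 followed the same order with smaller steps. On its 3′ probe, the one with the highest mean and the one used for the gene, the level was 3.81, 3.69 and 3.90 in GFRα1+ cells, 3.63, 3.36 and 3.26 in NGN3+ cells, 2.73, 2.81 and 2.50 in KIT+ cells and −2.30, −2.82 and −2.49 in whole testes. Here too no 2 groups overlapped. KIT+ cells thus kept a Sall4 level well over that of whole testes.

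Sall1 had another order, with its highest level in NGN3+ cells. It stood at −0.73, −0.47 and −0.75 in GFRα1+ cells, 0.48, 0.21 and −0.03 in NGN3+ cells and −2.42, −2.35 and −2.70 in KIT+ cells. All NGN3+ arrays lay above all GFRα1+ arrays, and all KIT+ arrays lay below both. In whole testes it read −6.04, −4.95 and −5.93 and was well above background on 0 of 3 arrays.

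Sall2, a neural and eye development factor, and Sall3, a limb and cranial nerve factor, were near the limit of detection. Each was well above background on 2 arrays only, GFRα1+ replicates 1 and 2, and on none of the other 10. Sall2 read −3.24, −2.84 and −4.02 in GFRα1+ cells, with group means of −5.32 in NGN3+ cells, −6.68 in KIT+ cells and −5.56 in whole testes. For Sall3 the GFRα1+ arrays read −3.14, −3.45 and −4.19, and the group means were −5.20, −6.73 and −5.38 in that order. Since no group had all 3 of its arrays above background for either gene, neither entered the tests below. In a fit with no filter, over 36315 genes, Sall2 stood at −1.96 and Sall3 at −1.61 in NGN3+ over GFRα1+ cells. These values are a description with no p, since no NGN3+ array and not GFRα1+ replicate 3 read either gene well above background. Both GFRα1+ arrays that read them lay on the slide that held no other sorted sample.

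**Figure D1:**
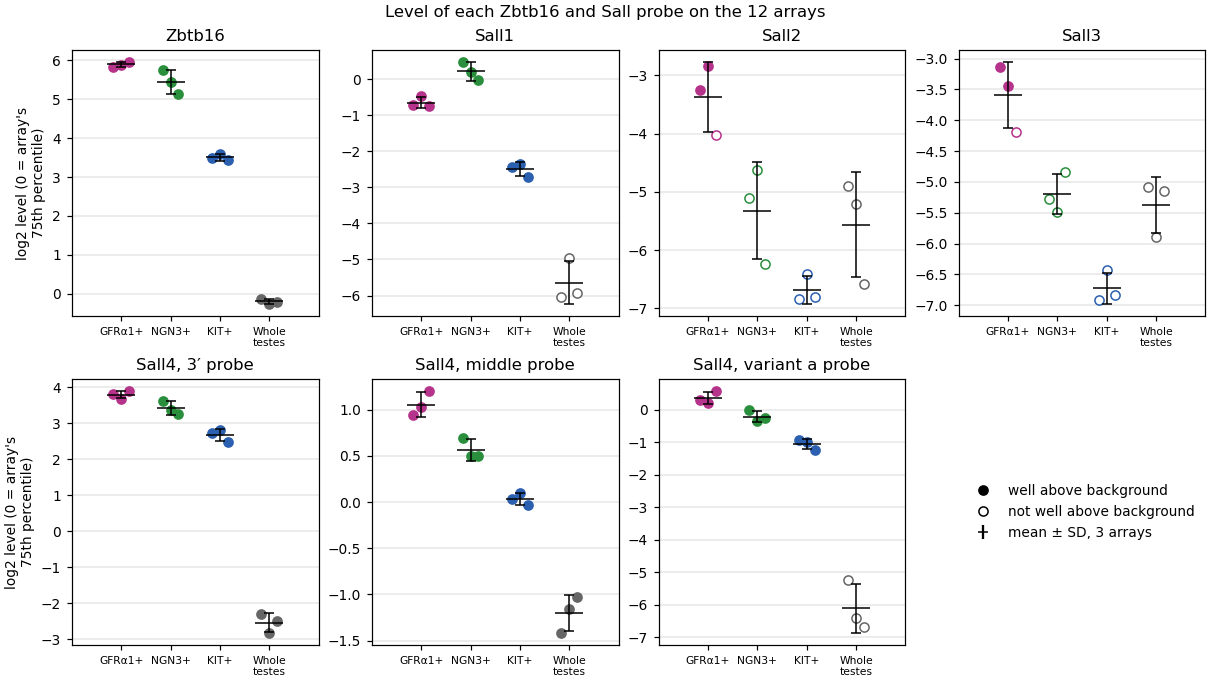
Level of each probe on the 12 arrays (y axis, log2 level, 0 = 75th percentile of the array; the scale differs between panels), by group. Filled points are well above background, open points are not, and bars give the mean ± SD of 3 arrays: Zbtb16 and Sall4 step down from GFRα1+ to whole testes, Sall1 is highest in NGN3+ cells, and Sall2 and Sall3 have 2 filled points each.

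The first comparison asked how the fractions differ within the undifferentiated pool. Scaled to the 75th percentile, Zbtb16 and Sall4 were somewhat lower in NGN3+ than in GFRα1+ cells, and Sall1 was higher. Before scaling, Zbtb16 and Sall4 ran the other way. Processed signals of Zbtb16 were 18198 to 21120 in GFRα1+ and 23840 to 25441 in NGN3+ cells. Those of the Sall4 3′ probe were 4374 to 5068 and 5669 to 6468. The percentile was 318 to 340 on GFRα1+ and 473 to 675 on NGN3+ arrays. So the direction for Zbtb16 and Sall4 rests on the scaling. The log2 ratio was −0.45 for Zbtb16 (SE 0.15, adjusted p = 0.0325) and −0.38 for Sall4 (SE 0.14, adjusted p = 0.0391), in limma with Benjamini-Hochberg adjustment over all 23792 genes tested. For Sall1 it was 0.87 (SE 0.16, adjusted p = 0.00221), a 1.83-fold higher level. In bulk RNA, fewer cells that express a gene and less RNA per cell cannot be told apart. Calls were common: 36.3% of the genes tested were lower and 20% higher, and the median log2 ratio of all genes was −0.19. Relative to that median Zbtb16 stood at −0.26, Sall4 at −0.19 and Sall1 at 1.06. Of all genes called in either direction 35.5% were higher, and 49.0% when only probes bright on all arrays of the fit set the percentile. Each of the 3 ratios separated the groups without overlap, which in 3 against 3 arrays gives a 2-sided exact permutation p of 0.1, the smallest possible. How many of all genes did so was not counted.

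The calls differed in how firmly they stood. Sall1 passed under every alternative processing run, and its ratio was 0.74 to 0.99 when any 1 array was left out (highest adjusted p = 0.0105). The Zbtb16 ratio was −0.60 to −0.30 with 1 array left out and passed only without NGN3+ replicate 1. That of Sall4 was −0.49 to −0.30 and passed only without GFRα1+ replicate 2 or NGN3+ replicate 1. Within the slide that held both fractions, against GFRα1+ replicate 3 alone, which limma takes to vary like the NGN3+ and KIT+ arrays, Zbtb16 stood at −0.51 (adjusted p = 0.134), Sall4 at −0.48 (adjusted p = 0.110) and Sall1 at 0.97 (adjusted p = 0.0197). Quantile normalization brought Zbtb16 to −0.12 (adjusted p = 0.441) and Sall4 to −0.16 (adjusted p = 0.294).

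**Figure D2:**
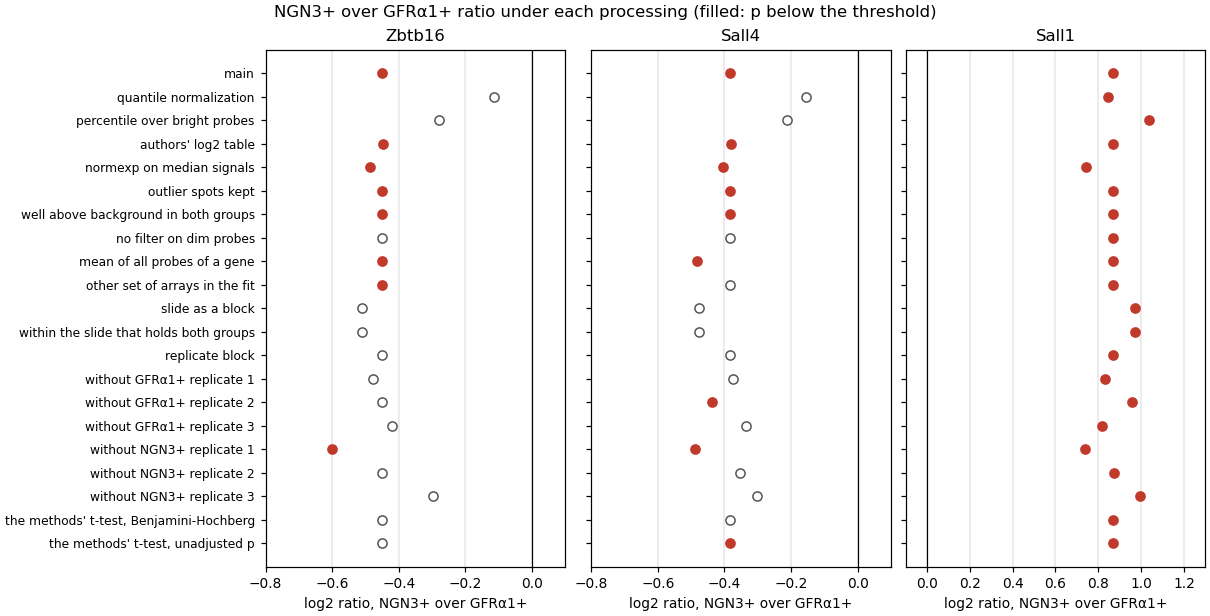
Log2 ratio of NGN3+ over GFRα1+ cells (x axis) for Zbtb16, Sall4 and Sall1 under each processing or left-out array (rows). Filled points have a p under the threshold of 0.05 (adjusted, except in the last row): Sall1 is filled in every row, Zbtb16 and Sall4 in only some, and no point lies across 0 from the top row.

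Between KIT+ and NGN3+ cells, both from Ngn3-EGFP mice and all on 1 slide, all 3 tested members fell. Sall1 fell by 2.71 on the log2 scale (SE 0.16, adjusted p = 2.11e-05), which made it 6.54-fold lower in KIT+ cells. Zbtb16 fell by 1.94 (SE 0.15, adjusted p = 5.38e-05), to a 3.83-fold lower level, and Sall4 fell by 0.74 (SE 0.14, adjusted p = 0.0032), a 1.67-fold lower level. Of 24111 genes tested, 17.0% were lower and 17.5% higher, and the median log2 ratio was 0.05. The direction and the call of each of the 3 held under every alternative run and without any 1 array. The 95% interval of the Sall4 ratio, −1.05 to −0.43, did not overlap that of Zbtb16, −2.28 to −1.59, or of Sall1, −3.08 to −2.34.

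Across both steps, KIT+ cells were lower than GFRα1+ cells in Zbtb16 by 5.23-fold, in Sall1 by 3.58-fold and in Sall4 by 2.18-fold. The log2 ratios were −2.39 (95% interval −2.73 to −2.04, adjusted p = 2.73e-06), −1.84 (−2.21 to −1.47, adjusted p = 1.7e-05) and −1.12 (−1.43 to −0.81, adjusted p = 0.000113) in the order of those genes. The intervals of Zbtb16 and Sall4 did not overlap. Among 23003 genes, 39.3% were lower and 26.4% higher in KIT+ cells, with a median of −0.16. These 3 comparisons share their arrays, so that their values are not independent of each other.

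**Figure D3:**
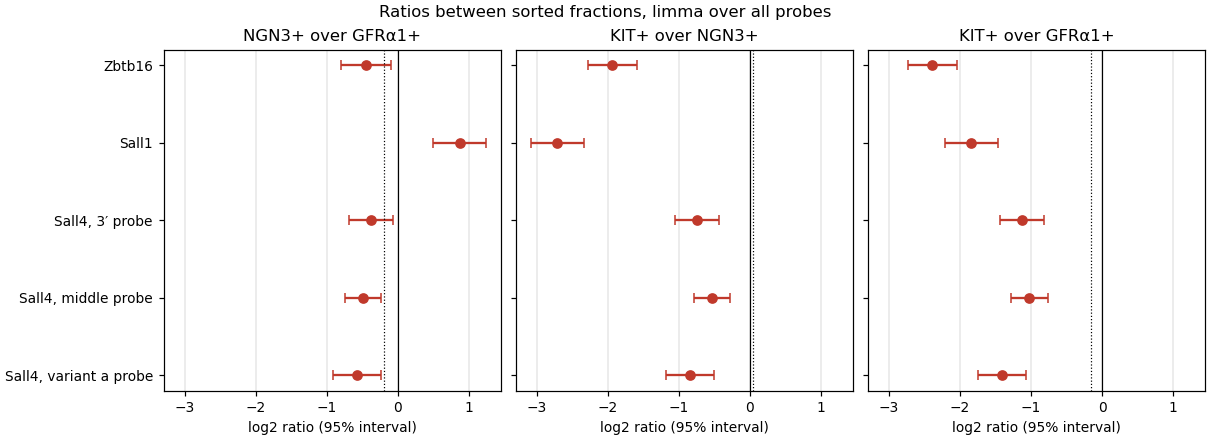
Log2 ratios between sorted fractions (x axis, points with 95% intervals) for 5 probes of Zbtb16, Sall1 and Sall4, from limma over all probes. Every point is past the threshold, the dotted line is the median of all genes, and only Sall1 in NGN3+ over GFRα1+ cells lies above 0.

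The other Sall4 probes gave the fall at each step too. The middle probe read 0.94, 1.03 and 1.20 in GFRα1+ cells, 0.70, 0.50 and 0.50 in NGN3+ cells, 0.03, 0.10 and −0.03 in KIT+ cells and −1.42, −1.16 and −1.03 in whole testes. For the variant a probe the levels were 0.29, 0.22 and 0.58 in GFRα1+ cells, −0.01, −0.35 and −0.26 in NGN3+ cells and −0.92, −1.0 and −1.24 in KIT+ cells, with −5.26, −6.42 and −6.68 in whole testes, where 0 of 3 arrays were well above background. Groups did not overlap on either probe. In NGN3+ over GFRα1+ cells the log2 ratio was −0.49 on the middle probe (adjusted p = 0.00616) and −0.57 on the variant a probe (adjusted p = 0.011), with 36.2% of 31854 probes lower. Both passed without any 1 array. Against GFRα1+ replicate 3 alone, within the shared slide, they stood at −0.64 and −0.79, with the spread taken from the NGN3+ and KIT+ arrays. The variant a probe did not pass in a fit over all 12 arrays (adjusted p = 0.134). In KIT+ over NGN3+ cells they stood at −0.53 (adjusted p = 0.00689) and −0.84 (adjusted p = 0.00271), with 16.9% of 32322 probes lower, and over 12 arrays the variant a probe did not pass here either (adjusted p = 0.0549). In KIT+ over GFRα1+ cells they stood at −1.02 (adjusted p = 6.74e-05) and −1.41 (adjusted p = 4.99e-05), with 39.4% of 30596 probes lower. Taken array by array, the middle probe minus the variant a probe was higher in KIT+ than in GFRα1+ cells by 0.39 on the log2 scale, with an exact permutation p of 0.1, the smallest 3 against 3 allows.

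Adult testes hold mostly meiotic and later germ cells, and against them Zbtb16 and Sall4 stood far higher in every sorted fraction. For Zbtb16 the log2 ratio was 6.09 in GFRα1+ (SE 0.14, adjusted p = 1.41e-10), 5.64 in NGN3+ (adjusted p = 2.34e-09) and 3.70 in KIT+ cells (adjusted p = 3.66e-09), or 68.2-fold, 49.95-fold and 13.04-fold. For Sall4 on its 3′ probe the ratios were 6.34, 5.96 and 5.22 in that order, or 80.9-fold, 62.1-fold and 37.2-fold (adjusted p = 2.73e-09 or lower). Sall1 was at least 13.5-fold higher in GFRα1+ cells, at least 24.6-fold in NGN3+ cells and at least 3.76-fold in KIT+ cells. These are bounds, since Sall1 was not above background in whole testes: there, each array entered at the higher of its own reading and the lowest level that was well above background. Sall1 passed the filter only through the sorted groups, where it is high, so that its bounds are given as a description, with no p. In the same order of fractions 49.9%, 44.0% and 43.2% of genes were higher and 37.5%, 39.6% and 41.6% lower, and the medians of all genes were 0.39, 0.13 and 0.05. No slide held whole testes together with NGN3+ or KIT+ arrays.

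The 3 Sall4 probes parted over whole testes. The middle probe was higher by 2.26 in GFRα1+, 1.77 in NGN3+ and 1.24 in KIT+ cells on the log2 scale (adjusted p = 3.43e-06 or lower), or 4.79-fold, 3.41-fold and 2.36-fold, against the 80.9-fold, 62.1-fold and 37.2-fold of the 3′ probe. Its log2 ratio minus that of the 3′ probe was −4.08, −4.19 and −3.98 (exact permutation p = 0.1 each, the smallest possible). The variant a probe, not above background in whole testes, was at least 27.2-fold, 18.3-fold and 10.2-fold higher in these fractions. Each bound was above the fold of the middle probe in the same fraction. Of all probes tested 50.6%, 44.7% and 43.8% were higher in the same order. The files match the middle and the 3′ probe to the same 3 variants.

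Across the 9 sorted arrays the level of Zbtb16 correlated with Sall4 at r = 0.97 and with Sall1 at r = 0.88, and Sall1 with Sall4 at r = 0.78. These describe steps between 3 groups that share arrays and a scale, and no p is given. Over all 12 arrays, among 18438 genes named through RefSeq and read above background in some group, those most like Zbtb16 were Cnn3, an actin-binding calponin, Klf7, a Kruppel-like factor, Asphd2, Stx7, a SNARE of endosomes, and Dennd2a (Pearson r 0.998 to 0.999). Most like Sall4 were E2f6, a repressor of the E2F family, Gpatch8, Mageb4, 9130401M01Rik and Zmym1 (all 0.999). For Sall1 they were Fbxo16, Cd276, an immune checkpoint ligand, Scnn1a, a subunit of the epithelial sodium channel, Cd70, a ligand of the TNF family, and Ddx27, an RNA helicase (0.992 to 0.995). Each of these 5 shared the peak of Sall1 in NGN3+ cells: Cd276 averaged −0.95 in GFRα1+, 0.07 in NGN3+ and −3.30 in KIT+ cells, and −6.47 in whole testes. With 4 groups, most of such an r comes from the distance between sorted cells and whole testes.

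Genes of NuRD, the complex that SALL proteins recruit, were called about as often as all genes in NGN3+ over GFRα1+ cells. All 15 of its genes listed were tested: 2 were higher and 6 lower in NGN3+ over GFRα1+ cells, 4 higher and 1 lower in KIT+ over NGN3+ cells, and 3 higher and 5 lower in KIT+ over GFRα1+ cells. Over all genes 20% were higher and 36.3% lower in the first of these, 17.5% and 17.0% in the second, and 26.4% and 39.3% in the third. The median log2 ratio of the list was −0.29, 0.01 and −0.05, against −0.19, 0.05 and −0.16 over all genes. The balance moved with the scaling: in KIT+ over GFRα1+ cells 6 were higher after quantile normalization, and 5 with the percentile set by bright probes, with normexp or over 12 arrays. Over all genes 6572, 7195, 5366 and 6076 were higher there in that order, against 6064 in the main fit. In KIT+ over NGN3+ cells 3 were lower after quantile normalization, and 2 with that percentile or with normexp. Over all genes 4676, 4840 and 4285 were lower there, against 4098 in the main fit. At the first step its remodelling ATPases went opposite ways: Chd5 was higher by 1.08 (adjusted p = 2.65e-05) and Chd4 lower, at −1.04 (adjusted p = 0.000111). The small subunit Cdk2ap1 stood at −0.62 and the zinc finger subunit Gatad2b at −0.47. At the second step the deacetylase Hdac1 was higher by 0.61, Mta1 by 0.62 and the histone-binding Rbbp4 by 0.72, while the ATPase Chd3 stood at −0.52. With slide as a block, the first step rests on GFRα1+ replicate 3 alone. There Cdk2ap1 stood at −0.53 and Gatad2b at −0.39, and no count is given.

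Corepressors and partners of PLZF were called in both directions, at the first step in about the shares of all genes. Of 11 listed and tested, 2 were higher and 4 lower in NGN3+ over GFRα1+ cells, and 4 higher and 2 lower in KIT+ over NGN3+ cells (medians −0.24 and 0.12). All genes gave 20% higher and 36.3% lower at the first step and 17.5% and 17.0% at the second, with medians of −0.19 and 0.05. The ubiquitin ligase subunit Cul3 stood at −0.47, the deacetylase Hdac3 at −0.50 and the Polycomb gene Bmi1 at −0.47 in the first of these, and the histone methyltransferase gene Ehmt2 at 0.42. At the second step Hdac3 was higher by 0.72, Sin3b by 0.87 and Runx1t1 by 0.81, and Fhl2, a LIM-domain cofactor, stood at −1.03. The shared slide holds 1 GFRα1+ array, so that no count is given for it or for slide as a block. Within it Cul3 stood at −0.40, Hdac3 at −0.37, Bmi1 at −0.45 and Ehmt2 at 0.39 in NGN3+ over GFRα1+ cells. Ehmt2 did not pass without GFRα1+ replicate 1 (0.37) or NGN3+ replicate 1 (0.29), nor Fhl2 without NGN3+ replicate 1 (−0.90) or 2 (−1.0), and Sin3b was 0.17 as the mean of its probes (adjusted p = 0.45). No more than 1 was higher at the first step without GFRα1+ replicate 1 or 3 or any 1 NGN3+ array, and no more than 1 lower at the second without NGN3+ replicate 1 or 2 or KIT+ replicate 1 or 3. Over all genes 4171 to 5311 were higher and 3139 to 3465 lower in these fits, against 4754 and 4098 in the main fits. In KIT+ over GFRα1+ cells 3 were higher and 3 lower, where all genes gave 26.4% and 39.3%. There 5 were higher after quantile normalization and 1 with the mean of all probes, where all genes gave 6572 of 22998 and 6067 of 23036.

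Among the other BTB zinc finger genes, 43 of 45 listed were tested, and more of them fell than rose in NGN3+ over GFRα1+ cells, 23 against 4, with a median of −0.32. All genes leaned the same way, with 36.3% lower, 20% higher and a median of −0.19. Without GFRα1+ replicate 1, NGN3+ replicate 2 and NGN3+ replicate 3, 15, 13 and 15 were lower. Fewer of all genes were lower there too: 7060 of 23831, 6196 of 24295 and 6941 of 23926, against 8628 of 23792 in the main fit. With the percentile set by bright probes 13 were lower, and 6058 of 23792 over all genes. The shared slide holds 1 GFRα1+ array, so that no count is given for it. In KIT+ over NGN3+ cells 9 were lower and 8 higher (median −0.03), and in KIT+ over GFRα1+ cells 25 were lower and 6 higher (median −0.36). Over all genes 17.0% were lower and 17.5% higher in the first of these (median 0.05), and 39.3% and 26.4% in the second (median −0.16). Bcl6b, a gene induced by GDNF in mouse spermatogonial stem cell culture, had the widest fall of those named at the first step, at −2.18 (adjusted p = 2.56e-06), and stood at −2.02 at the second. Its relative Bcl6, the germinal centre repressor, stood at −3.07 in KIT+ over NGN3+ cells (adjusted p = 1.59e-05). Zbtb11 and Zbtb43 stood at −0.81 and −0.76 at the first step, and Zbtb12 at 0.90 and Zbtb38, a reader of methylated DNA, at −0.90 at the second. Zbtb44 stood at −0.82 (adjusted p = 0.00119) at the first, but the sign turned in 4 alternatives, and without any 1 of the GFRα1+ arrays (0.07 to 0.15). Against whole testes 32 of 43 were higher and 6 lower in GFRα1+ cells, 31 and 8 of 43 in NGN3+ cells, and 29 and 8 of 42 in KIT+ cells. All genes gave 49.9% higher and 37.5% lower, 44.0% and 39.6%, and 43.2% and 41.6% in that order.

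**Figure D4:**
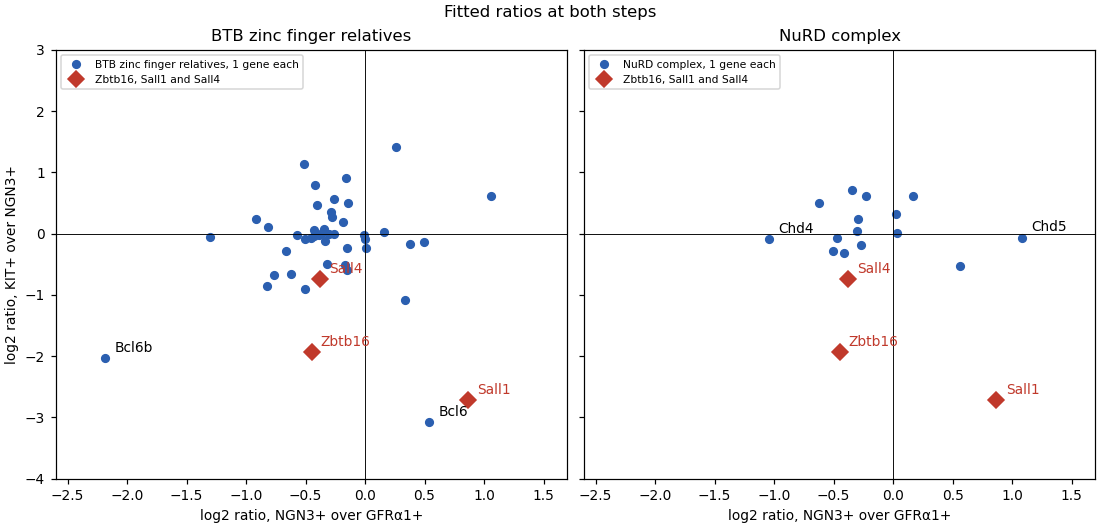
Log2 ratio of NGN3+ over GFRα1+ cells (x axis) against that of KIT+ over NGN3+ cells (y axis) for the BTB zinc finger genes (left) and NuRD genes (right), 1 blue point per gene tested in both, with Zbtb16, Sall1 and Sall4 in red. The 2 ratios share the NGN3+ arrays. Bcl6b lies at lower left, at −2.18 and −2.02, and the NuRD genes lie above Zbtb16 and Sall1 on the y axis.

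Genes that PLZF or SALL4 are reported to bind or regulate were called in both directions. Of 8 listed, 7 were tested: 2 were higher and 2 lower in NGN3+ over GFRα1+ cells, and 4 higher and 2 lower in KIT+ over NGN3+ cells, with medians of 0.21 and 0.50. All genes gave 20% higher and 36.3% lower at the first step and 17.5% and 17.0% at the second, with medians of −0.19 and 0.05. Kit, which PLZF represses in mouse spermatogonia, was higher by 2.58 in KIT+ over NGN3+ cells (adjusted p = 0.00014), where its protein was the marker of the sort, and stood at 0.46 in NGN3+ over GFRα1+ cells without passing (adjusted p = 0.145). Ddit4, an inhibitor of mTORC1 that PLZF activates in mouse spermatogonial progenitors, was higher by 0.86 in NGN3+ over GFRα1+ cells (adjusted p = 0.00251) and lower in KIT+ over NGN3+ cells, at −3.10 (adjusted p = 1.65e-05). Pou5f1, which SALL4 activates in mouse embryonic stem cells, stood at 1.07 (adjusted p = 0.0124) and −1.90 (adjusted p = 0.0012), but its first value was 0.36 within the shared slide (adjusted p = 0.175). The cyclin gene Ccna2, bound by PLZF in human cells, stood at −1.07 and 0.98. In KIT+ over GFRα1+ cells 2 of the 7 were higher and 2 lower (26.4% and 39.3% of all genes), with 1 lower without GFRα1+ replicate 1, KIT+ replicate 1 or KIT+ replicate 3. Over all genes 7796 to 8216 were lower in those 3 fits, against 9046 with every array. Without NGN3+ replicate 1 or 2 or KIT+ replicate 2 or 3, 2 rather than 4 were higher in KIT+ over NGN3+ cells. There 2857 to 3470 of all genes were higher, against 4217 with every array.

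The other markers of undifferentiated spermatogonia gave the setting for these values. Of 13 tested, 6 were lower and 4 higher in NGN3+ over GFRα1+ cells (median −0.44), all 13 were lower in KIT+ over NGN3+ cells (median −2.24), and 12 were lower in KIT+ over GFRα1+ cells (median −2.26). Of all genes 36.3% were lower and 20% higher at the first step, 17.0% lower at the second, and 39.3% lower in KIT+ over GFRα1+ cells. Without GFRα1+ replicate 3 or NGN3+ replicate 1, 2 were higher in NGN3+ over GFRα1+ cells. Over all genes 5311 of 23975 and 4651 of 24528 were higher in those fits, against 4754 of 23792 in the main fit. The shared slide holds 1 GFRα1+ array, so that its count is left out. At the first step Gfra1 stood at −2.87, the ETS factor Etv5 at −2.73, Bcl6b at −2.18 and the helix-loop-helix inhibitor Id4 at −2.07. Each was a wider fall than that of Zbtb16 or Sall4. Gfra1 and Neurog3 are both among the 13, and their reporters defined the sorts. Their directions at this step are thus no independent observation. The 4 genes higher at this step, picked out after their values were seen, were Upp1 at 1.39, Neurog3 at 1.1, Sox3 at 0.62 and Nanos3 at 0.51. Like Sall1, Ddit4 and Pou5f1, all 4 were lower at the second step, which shares the NGN3+ arrays, at −2.99, −2.46, −0.98 and −2.78 in that order. At the second step Nanos2, a translational repressor, stood at −4.23, and Id4 at −2.48. Zbtb16 and Sall1, at −1.94 and −2.71, lay on either side of the median of the list, and Sall4, at −0.74, lay above it.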

How the data were processed

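The authors scanned 1-colour SurePrint G3 mouse arrays and extracted them with Agilent Feature Extraction (versions 10.7.1.1 and 10.7.3.1 per the file headers). For each array they deposited the processed signal, a background-subtracted intensity, with flags for outlier spots and for signal well above background. The authors also deposited a table of log2 values. It equals the log2 processed signal minus the 75th percentile of each array up to a constant of 0.002 to 0.00857 (within 0.01 for 100% of probes), with no centring of genes, and served as an alternative.

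From the scanner files, log2 processed signals were computed without control spots and without outlier spots (103 to 161 per array), spots of a probe were averaged, and the 75th percentile of each array (318 to 675 in intensity) was subtracted. No spot was saturated. Names were taken through RefSeq genes of GRCm38.p6 for 26413 probes by accession, 3859 by symbol and 735 by synonym, and kept as filed for 24674. Each gene was read on its probe with the highest mean. Genes entered a test if either group had all 3 arrays well above background, with limma 3.58.1 in R 4.3.3, over 9 arrays between sorted fractions and 12 against whole testes, at an adjusted p of 0.05. The number of arrays limits the precision. The scripts were tested on simulated data. From each list, up to 4 genes with the smallest adjusted p at either step were named. Members, lists and tests were chosen with earlier results of these data known. Neither the paper's t-test calls nor its values were used.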

Additional observations from a re-analysis of the deposited data

How the results depend on the processing

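The 18 member ratios kept their direction in all 243 alternatives other than leaving out an array, and 227 kept their side of the threshold. The 16 that did not were Zbtb16 or Sall4 in NGN3+ over GFRα1+ cells, and the cause was not tested. Every alternative scaled the arrays. The counts include the Sall1 ratios over whole testes, where Sall1 was not above background. It passed the filter there only through the sorted groups, where it is high, so that those ratios add no support. Sall4 and Zbtb16 stood at −0.16 and −0.12 after quantile normalization, at −0.21 and −0.28 with the percentile set by bright probes only, at −0.48 and −0.51 under a slide block or inside the shared slide, and at −0.38 and −0.45 without a filter on dim probes (adjusted p = 0.0634 and 0.0524), and with the methods' t-test after Benjamini-Hochberg (0.0756 and 0.112). At an unadjusted p the t-test gave 0.0654 for Zbtb16 (−0.45), and over 12 arrays Sall4 (−0.38) had an adjusted p of 0.0596. With the replicate block the ratios were −0.38 and −0.45 (adjusted p = 0.0616 and 0.0518). This left 1 member called in NGN3+ over GFRα1+ cells, where 4580 of all genes were higher and 7785 lower. Same-numbered arrays correlated at −0.41 to 0.20 in their deviations, so that the numbers showed no pairing. Differently numbered arrays ran from −0.25 to 0.45, and pairing under other numbers was not tested. The block changed no other member's call. The same count of 1 came with quantile normalization, that percentile and the adjusted t-test, where 4915, 5813 and 3740 of all 23792 genes were higher and 7467, 6058 and 6657 lower. The slide block and the shared slide rest on 1 GFRα1+ array here, so that no count is given for them.

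With 1 array left out, 1 to 3 members were called in NGN3+ over GFRα1+ cells, and 3 to 5 in KIT+ over GFRα1+ cells and in GFRα1+ cells over whole testes, where Sall2 and Sall3 entered without GFRα1+ replicate 3. Both then passed the filter only through the GFRα1+ arrays that read them, so that choice fixed the 2 further calls. Without a filter 5 were called in both of these comparisons, with Sall2 and Sall3 not well above background on most arrays. Of 36315 genes 6241 were then higher and 11739 lower in KIT+ over GFRα1+ cells, and 13733 and 9657 in GFRα1+ cells over whole testes. With 1 array left out, 4171 to 5311 of all genes were higher and 6196 to 8862 lower in NGN3+ over GFRα1+ cells. In KIT+ over GFRα1+ cells 7796 to 8989 were lower, and in GFRα1+ cells over whole testes 11838 to 12200 were higher. Zbtb16 ran from −0.60 to −0.30 and Sall4 from −0.49 to −0.30 in NGN3+ over GFRα1+ cells. Set against the median of all genes, a scaling chosen after seeing the data, Zbtb16 stood at 0.000912 after quantile normalization, where it was −0.26 before. Of the other Sall4 probes, 147 of 149 alternatives kept the call. The exceptions were the variant a probe over 12 arrays, at −0.57 and −0.84 for the 2 steps (adjusted p = 0.134 and 0.0549). The count includes the variant a probe over whole testes, where it was not above background. It passed the filter there only through the sorted groups, so that those alternatives add no support.

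For the named list genes 495 of 518 alternatives, also added later, kept the call. Zbtb44 turned to 0.15 after quantile normalization, 0.099 with normexp, 0.112 over 12 arrays, 0.043 within the shared slide and 0.0734 to 0.146 without a GFRα1+ array, and ranged from −0.92 to 0.15 over all left-out arrays. Each fit chose its probe anew, and the value over 12 arrays came from another probe than the main one. Of the list counts, 376 of 420 stayed within 1.5 times. Normexp used median signals.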
